A study of Homo sapiens with 21 samples.

Results

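The genes of the endoplasmic reticulum (ER) secretory pathway and of the unfolded protein response (UPR) were followed by name in MM.1S cells, a line grown from the blood of a patient with multiple myeloma, a cancer of antibody-secreting plasma cells. They numbered 55 of the 17691 genes in the expression table. They were taken by name from a list of genes for translocation into the ER, folding, glycosylation, ER-associated degradation (ERAD) and antibody secretion. Messenger RNA was sequenced in 21 libraries, 3 in each of 7 groups. Pomalidomide, an immunomodulatory drug that redirects the CRBN ubiquitin ligase to proteins such as the transcription factor Aiolos, was given at 1 µM, and cells were collected after 24, 48 or 72 h. Hairpins against ARID2, a subunit of the PBAF chromatin remodelling complex, or against Aiolos, the product of IKZF3, were delivered by lentivirus for 72 h without drug. The references were a group labelled control knockdown, also without drug, whose hairpin and time the sources used here do not give, and untreated cells. The drug was given to cells labelled wild type, in 1 cell line throughout, and 1 untreated group served all 3 times, so time in drug and time in culture cannot be told apart. The labels number the libraries within a group but name no separate cultures or days, so the p-values below measure the spread between these libraries, which may be technical.

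Proteins bound for secretion are met at the ribosome by the signal recognition particle (SRP), threaded through the SEC61 translocon, freed of their signal peptide by signal peptidase and glycosylated by oligosaccharyltransferase. Inside the ER, chaperones and disulfide isomerases fold them, and molecules that fail are sent back to the cytosol for degradation by ERAD. A load of unfolded protein activates the sensors IRE1 (ERN1), ATF6 and PERK, which raise the transcription of chaperone and ERAD genes through XBP1, cleaved ATF6 and ATF4. Plasma cells depend on this pathway because they release antibody in bulk, and myeloma cells keep much of that load.

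Values are TPM, which scale reads by transcript length and express them as shares of a library. All 55 genes passed the filter of at least 1 TPM in 3 libraries that left 12559 genes for testing. Fold changes are on the log2(TPM + 1) scale with their standard errors (SE), and a gene is said to be higher or lower where its Benjamini-Hochberg adjusted p over the 12559 genes was under 0.05 in limma's moderated test. TPM keep no record of depth, so no counting interval could be given. In bulk RNA, fewer cells of a type and less RNA per cell cannot be told apart.

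In untreated cells, 42 of the 55 genes stood above 100 TPM and 5 above 1000 TPM. The highest was IGLL5, an immunoglobulin lambda-like gene beside the lambda constant genes, with 37835, 38087 and 38375 TPM, the highest level of any gene in untreated cells. JCHAIN, which joins antibody into polymers, had 5762, 5779.6 and 5651 TPM, and MZB1, an ER cochaperone of antibody assembly in B-lineage cells, had 1136, 1132 and 1130.1 TPM. The other genes above 1000 TPM encode the abundant chaperones HSP90B1 (1567 ± 22.4 TPM) and CALR (1531 ± 27.8 TPM; SD, n = 3 each). The lowest was CRELD2, a UPR-induced ER protein, at 22.4 ± 1.25 TPM (SD, n = 3). In the order of levels, 22 of the 54 neighbouring pairs had overlapping libraries. Over the 55 genes and 7 groups, the median SD was 2.54% of the mean. All 55 matched a single gene of GENCODE (GRCh38), such as DNAJB9 at chr7:108569568-108574850 on the plus strand, FKBP11 at chr12:48921518-48926474 on the minus strand and SSR1 at chr6:7268306-7347446 on the minus strand. DNAJB9, FKBP11, DERL3, CRELD2 and JCHAIN are among 28 that share exon bases with a gene on the other strand. The library kit does not mark strand, so reads in the shared bases cannot be assigned.

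The UPR acts on its targets through short promoter elements, so the windows from 250 bases before to 50 bases after each gene start in the RefSeq promoter table (GRCh38.p14) were searched on both strands. A window was found for 49 of the 55 genes. ERSE, which is CCAAT and CCACG separated by 9 free bases, stood in the windows of 6 of these 49 genes (12.2%): HSPA5, HSP90B1, PDIA6, CALR, CANX and CRELD2. Of all 27305 genes with a window, 25 (0.0916%) held it. ERSE-II, which is ATTGG and CCACG around 1 free base, stood in 3 (6.12%), SDF2L1, HYOU1 and HERPUD1, against 19 of all genes (0.0696%). The UPRE core TGACGTGG stood in 5 (10.2%), SRP19, SEC62, SSR3, SSR4 and HYOU1, against 253 of all genes (0.927%), and in HYOU1 it overlapped 1 of 2 ERSE-II matches. A gene counted where any of its windows held a match. The 55 genes were taken by name and include known UPR targets, so their higher shares are no independent evidence. These matches describe letters in a window and are not measured binding sites. The upstream parts of the windows of 4 genes that the results return to are printed below, 5′ to 3′ on the strand of the gene, with the ERSE match of HSPA5 and the ERSE-II matches of the other genes in capitals. A capital stretch ending in CCAAT is the element on the opposite strand.
HSPA5, minus strand, chr9:125241344-125241593: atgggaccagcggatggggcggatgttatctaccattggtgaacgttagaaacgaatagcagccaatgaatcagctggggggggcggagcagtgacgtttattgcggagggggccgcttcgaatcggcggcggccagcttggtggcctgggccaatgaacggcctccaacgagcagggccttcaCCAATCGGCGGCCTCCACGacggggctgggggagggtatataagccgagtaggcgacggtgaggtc
HYOU1, minus strand, chr11:119057206-119057455: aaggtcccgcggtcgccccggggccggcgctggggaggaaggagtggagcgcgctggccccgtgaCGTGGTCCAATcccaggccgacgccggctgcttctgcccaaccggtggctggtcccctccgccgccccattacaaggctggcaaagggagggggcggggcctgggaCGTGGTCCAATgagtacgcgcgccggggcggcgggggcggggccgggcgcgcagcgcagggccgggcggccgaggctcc
HERPUD1, plus strand, chr16:56931892-56932047: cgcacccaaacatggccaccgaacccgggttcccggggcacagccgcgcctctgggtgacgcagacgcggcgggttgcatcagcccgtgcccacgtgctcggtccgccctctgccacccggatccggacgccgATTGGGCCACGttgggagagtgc
SDF2L1, plus strand, chr22:21642052-21642260: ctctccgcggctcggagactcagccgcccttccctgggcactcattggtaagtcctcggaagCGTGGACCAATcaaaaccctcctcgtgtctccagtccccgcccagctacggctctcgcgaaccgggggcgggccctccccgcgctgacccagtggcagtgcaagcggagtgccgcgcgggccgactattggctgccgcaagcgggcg

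The labels and the cell type were checked before the comparisons. ARID2 had 12.4, 12.2 and 12.1 TPM in ARID2 knockdown cells, against 25.999, 25.4 and 25.4 TPM in control knockdown cells (log2 fold change -1.01 ± 0.07, limma adjusted p = 8.13e-11). IKZF3 had 127, 121 and 141 TPM for the libraries labelled Aiolos knockdown, against 83.5, 79.2 and 81.4 TPM in control knockdown cells (log2 fold change 0.67 ± 0.05, limma adjusted p = 1.92e-10), which goes against the label. These libraries are therefore called the libraries labelled Aiolos knockdown, and the Aiolos protein was not measured here. IKZF3 averaged 96.4 TPM in untreated cells and 119.5 TPM in ARID2 knockdown cells. At 24, 48 and 72 h of pomalidomide it averaged 115, 123 and 112 TPM. Of 11 plasma cell markers, the surface proteoglycan SDC1 had 686 TPM on average in untreated cells and the transcription factor IRF4 469 TPM, while the surface proteins CD38 and CD27 had 6.92 and 1.71 TPM. Of 8 mature B-cell markers, MS4A1 and CD22 did not exceed 0.0524 TPM in any library, but CD79B, CR2 and BACH2 had 72.4, 40.7 and 6.7999 TPM in untreated cells. A list of 8 myeloid markers summed to between 4.65 and 8.59 TPM in untreated libraries and between 45.1 and 55.5, 72.3 and 78.4, and 55.6 and 59.3 TPM after 24, 48 and 72 h of pomalidomide, mostly CD68, with 3 of the 4 that could be tested higher at 72 h and LYZ and CSF1R at no more than 0.888 TPM in any library. Its part in the results below was not tested.

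**Figure D1:**
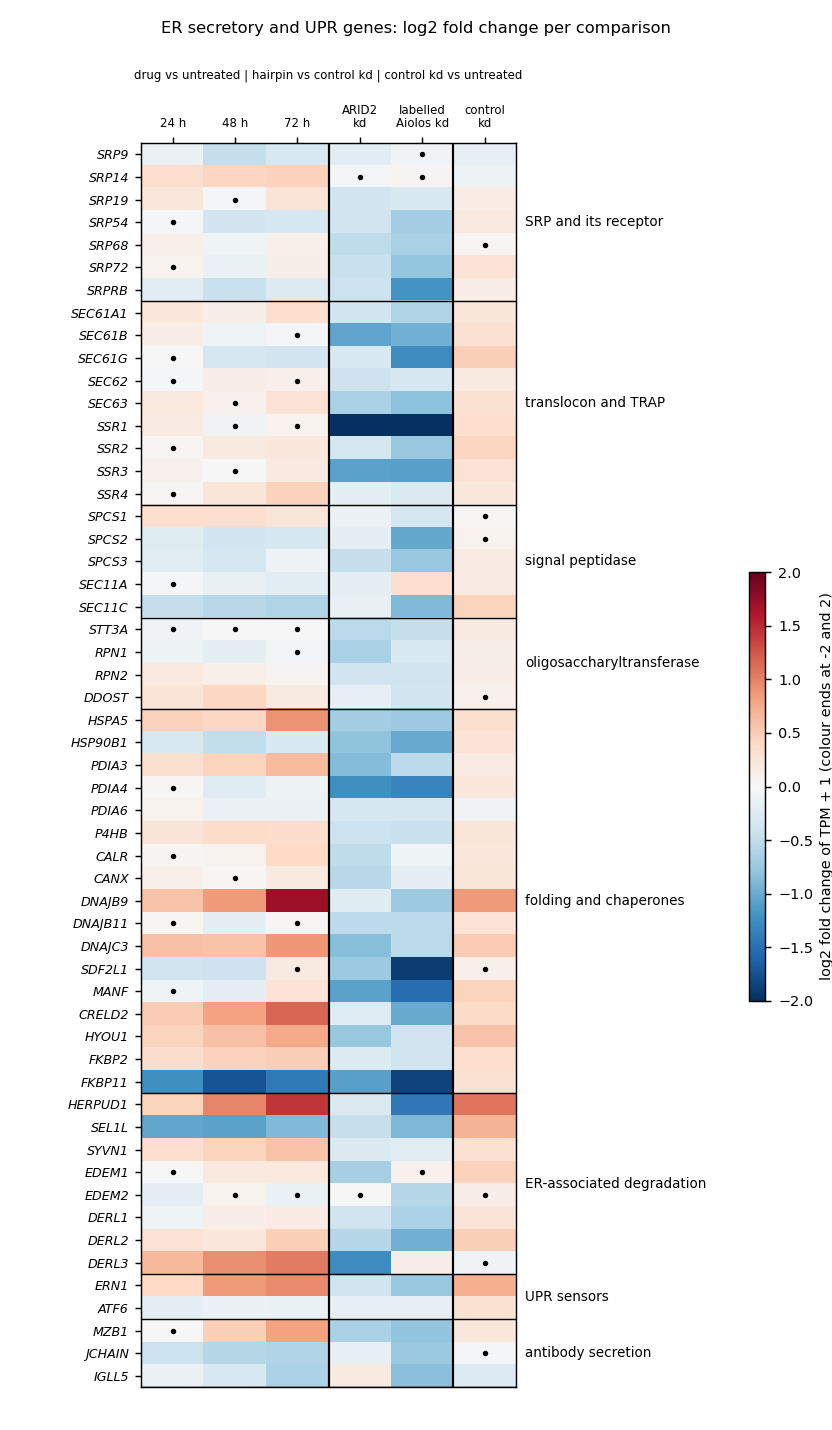
Log2 fold change of each of the 55 genes (rows, grouped by role) for the 3 pomalidomide times and the control knockdown against untreated cells, and for both hairpin groups against control knockdown cells. Colours end at -2 and 2, and a dot marks an adjusted p of 0.05 or more; the hairpin columns are blue in nearly every row, with 52 and 50 of 55 genes lower, while the pomalidomide columns are mixed.

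After 72 h of pomalidomide, 31 of the 55 genes were higher than in untreated cells, 16 were lower and 8 did not pass. The largest rises were in UPR targets: the HSPA5 cochaperone DNAJB9, the ERAD scaffold HERPUD1 and CRELD2. The largest falls were in the prolyl isomerase FKBP11, in SEL1L, the partner of the ERAD ubiquitin ligase SYVN1, and in IGLL5. Folding genes leaned towards rises (11 of 17 higher, 4 lower), as did ERAD genes (6 of 8 higher, 1 lower), and signal peptidase genes towards falls (4 of 5 lower, 1 higher). Median-of-ratios scaling made these counts 10 higher and 5 lower for folding and 4 higher and 2 lower for ERAD, and left them the same for signal peptidase.

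These counts stand close to those of the whole transcriptome. Of all genes tested, 48.1% were higher and 31.6% lower at 72 h, against 56.4% and 29.1% of the 55. The median fold change was 0.18 for the 55 genes and 0.15 for all genes. That common shift depends on scaling: with median-of-ratios scaling the median of all genes moved to 0.01, and the 55 genes divided into 21 higher and 22 lower. At 24 h, 26 genes were higher and 15 lower, where 35.1% of all genes were higher and 31.0% lower. At 48 h, 25 were higher and 23 lower, where 43.8% of all genes were higher and 34.8% lower. With quantile normalization these counts were 33 higher and 10 lower at 24 h, and 29 higher and 15 lower at 48 h. Median-of-ratios scaling gave 21 higher and 17 lower at 24 h, and 20 higher and 27 lower at 48 h. The median of the 55 was 0.06 at 24 h and 0.04 at 48 h, against 0.03 and 0.08 for all genes. The 3 times share the untreated libraries, so their counts are not independent of each other.

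HSPA5 encodes BiP, the main ER chaperone of the HSP70 family and the standard readout of the UPR. It had 750.1, 739 and 734 TPM in untreated cells, 1021, 1027 and 1021 TPM at 24 h, 972, 994 and 997 TPM at 48 h and 1376, 1339 and 1422 TPM at 72 h. All drug libraries were above all untreated libraries, and those at 72 h were above the rest (log2 fold change against untreated cells 0.46 ± 0.03, 0.41 ± 0.03 and 0.89 ± 0.03 in time order; limma adjusted p = 6.17e-16 at 72 h). DNAJB9 (ERdj4), a cochaperone of HSPA5 induced through XBP1, had 116, 109 and 113 TPM in untreated cells, 171, 167 and 165 TPM at 24 h, 195, 217 and 202 TPM at 48 h and 385, 349 and 378 TPM at 72 h. Each time stood above the one before with no overlap, and its rise at 72 h, 1.70 ± 0.05, was the largest of the 55 genes at that time (limma adjusted p = 2.69e-17). HERPUD1, which holds the ERAD ligase complex together, had 239.8, 244 and 239 TPM in untreated cells, 337, 325 and 320.1 TPM at 24 h, 463, 480.02 and 483 TPM at 48 h and 633, 657 and 660.2 TPM at 72 h. It too stepped up at every time without overlap (log2 fold change 0.44 ± 0.03, 0.98 ± 0.03 and 1.43 ± 0.03; limma adjusted p = 1.6e-19 at 72 h).

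**Figure D2:**
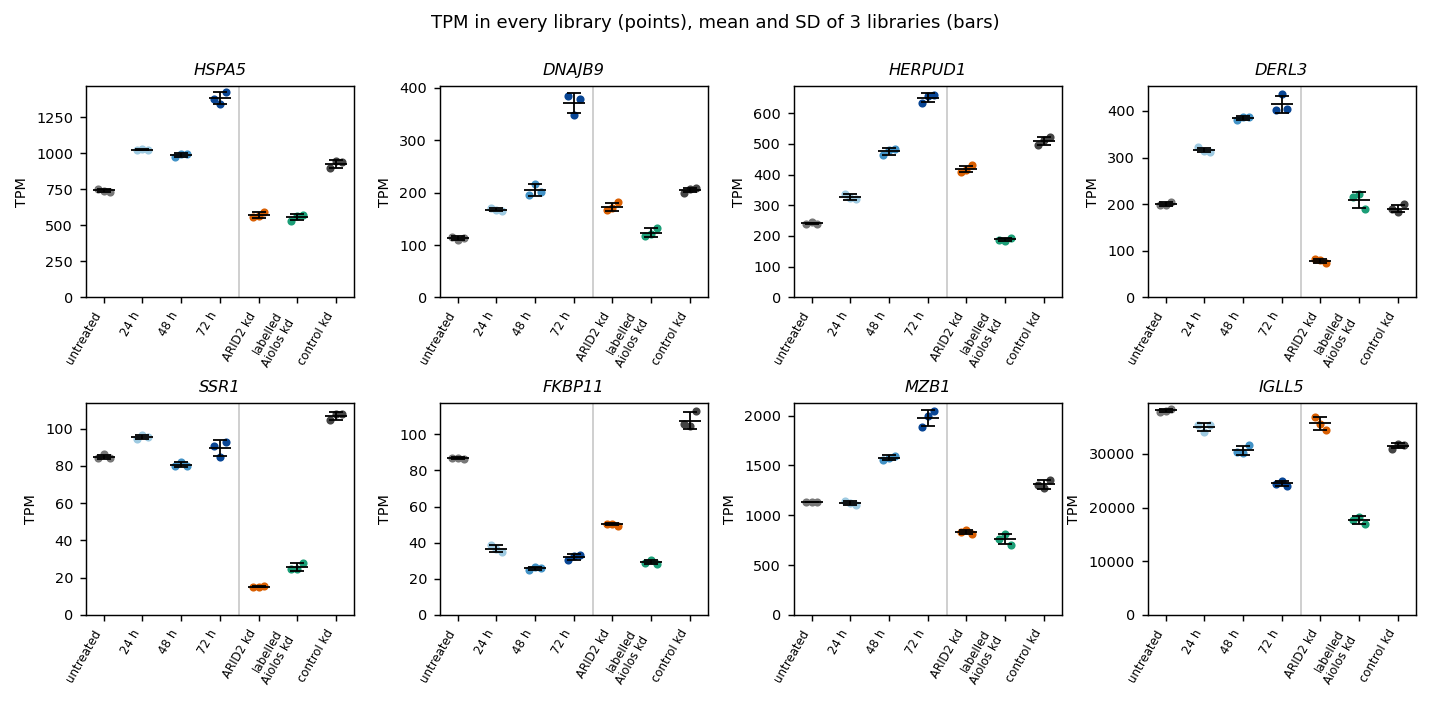
TPM of 8 genes in every library, by group, with points for libraries and bars for the group mean and SD (n = 3). DNAJB9 and HERPUD1 step up with time in pomalidomide, FKBP11 is low in every drug and hairpin group, DERL3 is low in ARID2 knockdown cells only among the hairpin groups, and SSR1 is low in both hairpin groups and not with the drug.

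Among the other folding genes, DNAJC3 (p58IPK), an HSPA5 cochaperone that restrains PERK, had 98.6, 100.5 and 102 TPM in untreated cells, 147, 154 and 153 TPM at 24 h, 152, 152 and 146 TPM at 48 h and 190.3, 177 and 183 TPM at 72 h. All drug libraries lay above the untreated ones (log2 fold change 0.59 ± 0.04 at 24 h and 0.86 ± 0.04 at 72 h; limma adjusted p = 1.8e-10 and 1.25e-13). CRELD2 had 22.8, 23.4 and 20.99 TPM in untreated cells, 36.6, 30.01 and 30.4 TPM at 24 h, 40.2, 41.1 and 38.3 TPM at 48 h and 50.7, 53.1 and 50.9 TPM at 72 h. The groups did not overlap between untreated cells and any drug time, and the fold change at 72 h was 1.17 ± 0.07 (limma adjusted p = 2.11e-12). The nucleotide exchange factor HYOU1, the disulfide isomerase PDIA3 and the lectin chaperone CALR also rose at 72 h, by 0.76, 0.63 and 0.39 on the log2 scale. Other abundant folding genes fell at 72 h, namely the HSP90 family chaperone HSP90B1 (-0.31 ± 0.04) and, by less, the disulfide isomerases PDIA6 (-0.12 ± 0.02) and PDIA4 (-0.10 ± 0.03).

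The fall of FKBP11, a prolyl isomerase of the ER found in secretory cells, was the largest of the 55 genes at each drug time. It had 87.1, 87.1 and 86.6 TPM in untreated cells, 38.5, 36.5 and 34.9 TPM at 24 h, 24.97, 26.3 and 25.8 TPM at 48 h and 30.3, 32.7 and 33.1 TPM at 72 h. Every drug library was far below every untreated one, and the 48 h libraries were lowest (log2 fold change -1.23 ± 0.04, -1.72 ± 0.04 and -1.41 ± 0.04; limma adjusted p = 8.96e-15, 8.4e-18 and 1.56e-16). SEL1L had 216, 208 and 209 TPM in untreated cells, 100.03, 102 and 104 TPM at 24 h, 102, 103 and 95.04 TPM at 48 h and 115, 114 and 114 TPM at 72 h. Again no drug library reached the untreated ones, with log2 fold changes of -1.04 ± 0.05, -1.07 ± 0.05 and -0.88 ± 0.05 (limma adjusted p = 2.16e-13, 3.4e-14 and 8.56e-13). SYVN1, the ligase SEL1L works with, went the other way, with a log2 fold change of 0.57 ± 0.03 at 72 h. SYVN1 shares exon bases with FAU and MIR6751 on the same strand and with MRPL49 on the other. A part of its reads could belong to those genes. The related retrotranslocation factors DERL1, DERL2 and DERL3 were all higher at 72 h, by 0.16, 0.47 and 1.04, though DERL1 turned to -0.0034 with median-of-ratios scaling. DERL3, the derlin most tied to secretory cells, had 199, 198 and 205 TPM in untreated cells, 322, 314 and 313 TPM at 24 h, 379.6, 387 and 387 TPM at 48 h and 402, 436 and 405 TPM at 72 h. Its drug libraries all lay above the untreated ones, and the step between 48 and 72 h did not pass (0.11 ± 0.05, limma adjusted p = 0.0808). Of the mannosidase-like factors that mark glycoproteins for ERAD, EDEM1 rose slightly at 72 h (0.19 ± 0.04), close to the median of all genes (0.15). EDEM2 did not pass (-0.13 ± 0.08, 95% confidence interval -0.30 to 0.03).

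Of the sensors, ERN1 (IRE1), whose nuclease splices XBP1 mRNA, had 80.7, 81.1 and 84.04 TPM in untreated cells, 105, 107 and 112 TPM at 24 h, 145, 153 and 145 TPM at 48 h and 157, 161 and 156 TPM at 72 h. All drug libraries were above the untreated ones (log2 fold change 0.39 ± 0.04, 0.84 ± 0.04 and 0.94 ± 0.04; limma adjusted p = 4.94e-14 at 72 h). ATF6, the sensor cut to a transcription factor in the Golgi, had 125, 124 and 122 TPM in untreated cells, 104, 110.2 and 112 TPM at 24 h, 115, 116 and 109 TPM at 48 h and 114, 113 and 111 TPM at 72 h. It was slightly lower at each time (-0.18 ± 0.04, -0.12 ± 0.04 and -0.13 ± 0.04; limma adjusted p = 0.000669, 0.00917 and 0.00718), and the call at 48 h was lost in 3 other settings. These were leaving out 48 h library number 3 (limma adjusted p = 0.0509), rescaling without mitochondrial and immunoglobulin genes (0.062) and quantile normalization, where the fold change was -0.0096 (0.852). Total XBP1 mRNA, which this table does not divide into spliced and unspliced forms, was 1079 ± 6.53 TPM at 72 h against 1086 ± 13.2 TPM in untreated cells (SD, n = 3 each; -0.01 ± 0.02, limma adjusted p = 0.703). ATF4, the factor translated when PERK is active, was lower at 24 h and 48 h (-0.33 ± 0.03 and -0.34 ± 0.03) and higher at 72 h (0.31 ± 0.03). DDIT3 (CHOP), a stress factor downstream of ATF4, did not pass at 24 or 48 h and had a fold change of 0.92 ± 0.10 at 72 h (limma adjusted p = 5.03e-08).

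Genes of targeting and translocation went in both directions with the drug. Of the 7 genes of SRP and its receptor, 4 were higher and 3 lower at 72 h (1 and 3 with median-of-ratios scaling, which turned SRP68 and SRP72 below 0), from SRP14 (0.46 ± 0.02) to SRP54 (-0.35 ± 0.04), which carries the GTPase that binds the signal peptide. Of the 9 genes of the translocon and the associated TRAP complex, 5 were higher and 1 lower (3 and 2 with that scaling). The pore subunit SEC61A1 rose by 0.34 and SSR4 of TRAP by 0.45, while the small pore subunit SEC61G had a fold change of -0.39 ± 0.06. SSR1, also of TRAP, did not pass at 72 h (0.07 ± 0.04, 95% confidence interval -0.02 to 0.16). In signal peptidase, SEC11C, a catalytic subunit, had 366, 359 and 352 TPM in untreated cells, 267, 265 and 239.7 TPM at 24 h, 247, 244 and 243 TPM at 48 h and 237, 220.4 and 251 TPM at 72 h. Drug libraries were below untreated ones at each time (-0.48 ± 0.04, -0.55 ± 0.04 and -0.60 ± 0.04; limma adjusted p = 9.9e-11 at 72 h). The other catalytic subunit SEC11A and the accessory subunits SPCS2 and SPCS3 were also lower at 72 h, and SPCS1 was higher (0.24 ± 0.03). Of the 4 oligosaccharyltransferase subunits, DDOST and RPN2 were higher by 0.18 and 0.06 (none higher, and 3 of the 4 lower, under median-of-ratios scaling), and the catalytic subunit STT3A (-0.0021 ± 0.03, 95% confidence interval -0.07 to 0.06) and RPN1 did not pass.

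The genes tied to antibody went in both directions. MZB1 had 1142, 1119 and 1105 TPM at 24 h, 1550.5, 1578 and 1599 TPM at 48 h and 1890.4, 1994 and 2046 TPM at 72 h, beside the untreated values above. Its libraries at 48 and 72 h were above the untreated ones (0.48 ± 0.04 and 0.80 ± 0.04; limma adjusted p = 2.19e-13 at 72 h), while 24 h did not pass (-0.01 ± 0.04). JCHAIN had 4124, 4361 and 4343 TPM at 24 h, 3900.4, 3739 and 3879 TPM at 48 h and 3925, 3531 and 3854 TPM at 72 h, below the untreated libraries at every time (-0.42 ± 0.04, -0.58 ± 0.04 and -0.61 ± 0.04; limma adjusted p = 2.17e-10 at 48 h). IGLL5 had 35442, 34144 and 35446 TPM at 24 h, 30272, 30189 and 31661 TPM at 48 h and 24395, 25019 and 24108 TPM at 72 h (-0.12 ± 0.03, -0.31 ± 0.03 and -0.64 ± 0.03; limma adjusted p = 1.24e-13 at 72 h). It was lowest at 72 h, without overlap with untreated cells there, and its call at 24 h was lost with no filter on low values (limma adjusted p = 0.0686) and with quantile normalization (0.349). IGLL5 shares exon bases on the same strand with the lambda genes IGLC1 and IGLJ1, and the sources used here do not give how the authors divided their reads, so its level is uncertain.

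Because IGLL5 and JCHAIN hold most of the summed TPM, the sum over the 55 genes followed them: it was 6.35% of listed TPM in untreated cells and 6.02%, 5.60% and 5.18% at 24, 48 and 72 h. Over the other 53 genes the sum went the other way, at 1.82%, 1.93%, 1.97% and 2.22% in the same order. These are shares of a library, so a fall of IGLL5 lifts the shares of other genes. The median fold change of all genes at 72 h was 0.15, and 0.01 with median-of-ratios scaling. The part of this common shift in the rise of the sum was not tested.

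Between drug times, 18 genes were higher and 24 lower at 48 h than at 24 h (32.1% and 26.1% of all genes), with 6 of 7 SRP genes and 5 of 9 translocon genes lower and 6 of 8 ERAD genes higher. With quantile normalization that step gave 19 higher and 15 lower. At 72 h, 31 were higher and 4 lower than at 48 h (31.6% and 16.5% of all genes), with 14 of 17 folding genes higher and none lower. Leaving out 48 h library number 3, or 72 h library number 2 or 3, gave 2 lower in place of 4. Median-of-ratios scaling gave 23 higher and 12 lower for that step, quantile normalization 19 and 10, and rescaling without mitochondrial and immunoglobulin genes 24 and 9, with 12 or 13 of the 17 folding genes higher in each. The largest gain between 48 and 72 h was in DNAJB9 (0.85 ± 0.05, limma adjusted p = 4.43e-11). It was followed by SDF2L1 (0.61 ± 0.10), an HSPA5-associated cochaperone component, and by HSPA5 (0.48 ± 0.03) and the stress-induced ER factor MANF (0.48 ± 0.04). 

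Genes of the same processes outside the 55 were also counted, in 6 lists with 125 genes tested. At 72 h, 78 of these were higher and 18 lower, with a median of 0.21, beside 48.1% higher, 31.6% lower and a median of 0.15 over all genes. With median-of-ratios scaling 55 were higher and 42 lower, with a median of 0.05, and N-glycosylation turned to 2 higher and 11 lower of 19. In ER-to-Golgi transport 23 of 31 were higher and 2 lower (14 and 7 with median-of-ratios scaling), with the coatomer genes COPA at 301 ± 4.36 TPM against 168 ± 2.61 TPM in untreated cells and COPG1 at 215 ± 5.31 against 141 ± 1.99 TPM (SD, n = 3 each). Among UPR regulators, 10 of 16 were higher and 2 lower. PPP1R15A (GADD34), which restores translation after PERK activity, had 85.5 ± 3.02 TPM against 42.3 ± 1.32 TPM in untreated cells (SD, n = 3 each), and the transcription factor CREB3L2 92.7 ± 1.71 against 57.8 ± 1.73 TPM. In the ERAD list, 12 of 20 were higher and 3 lower, and the lectin OS9, which delivers glycoproteins to SEL1L, had 359 ± 14.7 TPM against 171 ± 2.703 TPM. Among folding and redox genes, 14 of 21 were higher and 3 lower. ERP29, an ER folding factor, rose by 1.09 on the log2 scale and the disulfide isomerase TXNDC5 by 0.45, while the oxidase ERO1A had 18.97 ± 1.03 TPM against 39.7 ± 1.67 TPM and the peroxiredoxin PRDX4 112 ± 2.897 against 172 ± 2.26 TPM. N-glycosylation was mixed, with 7 of 19 higher and 5 lower: the mannosyltransferase ALG2 rose by 1.05, and DPM1 and DPAGT1, of dolichol-linked sugar synthesis, had fold changes of -0.84 ± 0.05 and -0.65 ± 0.04. Of 18 translocation genes, 12 were higher and 3 lower (6 and 6 with median-of-ratios scaling), with the signal peptide peptidase HM13 higher by 0.49.

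In both hairpin groups nearly all of the 55 genes were lower than in control knockdown cells. In ARID2 knockdown cells 52 were lower and 1 higher, with a median of -0.42, where 29.2% of all genes were lower, 33.1% higher and the median was 0.02. In the libraries labelled Aiolos knockdown 50 were lower and 2 higher, with a median of -0.64, where 30.7% of all genes were lower, 37.2% higher and the median was 0.05. The higher count there was 1 without control library or hairpin library number 1, and 3 without hairpin library number 2. All 17 folding genes, all 9 translocon and TRAP genes, all 4 oligosaccharyltransferase genes and both sensors were lower in each hairpin group, except that quantile normalization left 3 of the 4 and 1 of the 2 sensors in ARID2 knockdown cells. The 2 comparisons share the control knockdown libraries.

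The control knockdown libraries themselves stood above untreated cells in these genes: 43 of the 55 were higher and 4 lower, with a median of 0.24, where 17.3% of all genes were higher, 28.4% lower and the median was -0.04. HERPUD1 was 1.08 ± 0.03 higher in control knockdown cells than in untreated cells on the log2 scale, DNAJB9 0.85 ± 0.05, ATF4 1.07 ± 0.03 and DDIT3 1.37 ± 0.10. Untreated cells were therefore also used as a reference, a choice made after these values were seen. Against them, 40 of the 55 genes were lower and 8 higher in ARID2 knockdown cells (36.0% and 32.0% of all genes), with a median of -0.20. In the libraries labelled Aiolos knockdown 41 were lower and 7 higher (35.7% and 36.5% of all genes), with a median of -0.35. The change of reference thus moved the medians by more than 1.5 times and left most genes lower. Untreated cells carried no lentivirus, so transduction and the hairpin cannot be told apart in that comparison.

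**Figure D3:**
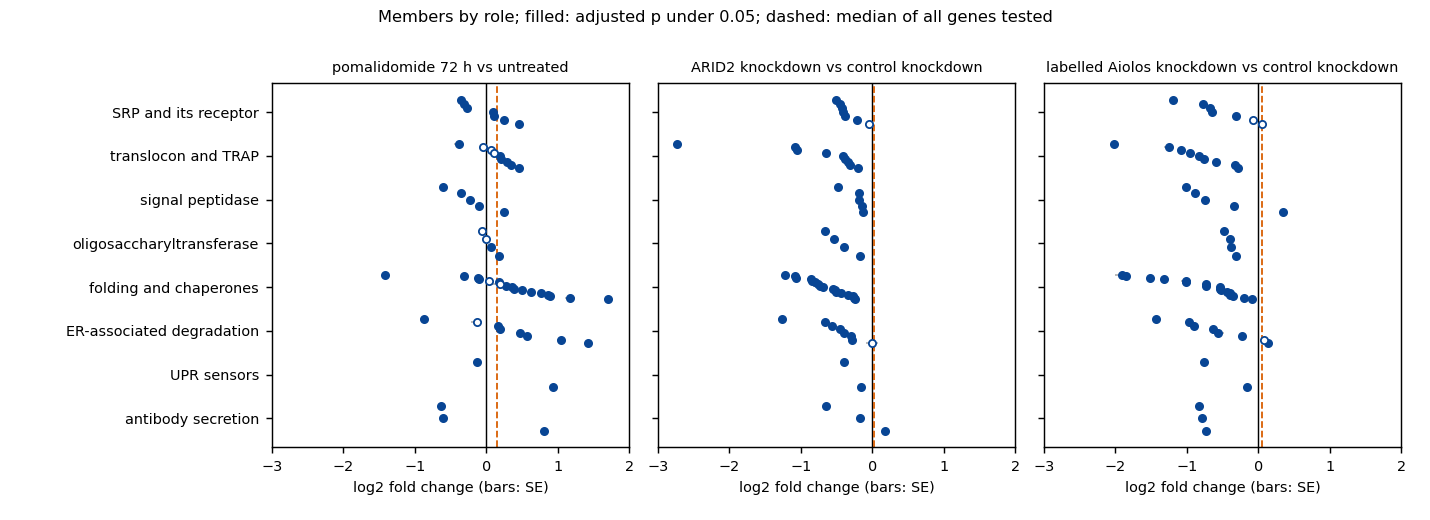
Log2 fold change of each gene by role for 72 h of pomalidomide against untreated cells, and for ARID2 knockdown cells and the libraries labelled Aiolos knockdown against control knockdown cells. Filled points passed an adjusted p of 0.05, open points did not, and the dashed line is the median of all genes; in the hairpin panels nearly all points lie under that line, whereas with the drug they lie on both sides.

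In translocation, the TRAP subunit SSR1 fell furthest of the 55 genes in both hairpin groups. It had 15.05, 15.1 and 15.5 TPM in ARID2 knockdown cells, and 24.5, 24.8 and 28.02 TPM for the libraries labelled Aiolos knockdown, against 104, 108 and 108 TPM in control knockdown cells and 84.2, 86.3 and 84.2 TPM in untreated cells. All libraries of both hairpin groups were far below both references (log2 fold change against control knockdown -2.74 ± 0.04 and -2.01 ± 0.04; limma adjusted p = 3.65e-20 and 2.04e-18), and against untreated cells the values were -2.41 and -1.68. SSR1 shares exon bases on the same strand with CAGE1, so a part of its reads could belong to that gene. Its partner subunits fell by less: SSR3 had fold changes of -1.08 ± 0.04 in ARID2 knockdown cells and -1.08 ± 0.04 in the libraries labelled Aiolos knockdown, SSR2 -0.35 ± 0.03 and -0.76 ± 0.03, and SSR4 -0.20 ± 0.05 and -0.28 ± 0.05. Of the pore subunits, SEC61B had fold changes of -1.05 ± 0.04 and -0.96 ± 0.04 in the same order. SEC61G was -0.31 ± 0.06 in ARID2 knockdown cells and -1.25 ± 0.06 in the libraries labelled Aiolos knockdown. Against untreated cells, SSR3 and SEC61B stayed lower in both groups (-0.79 and -0.80, -0.76 and -0.66). SSR2 and SEC61G were there above untreated cells in ARID2 knockdown cells (0.09 and 0.17) and below them in the libraries labelled Aiolos knockdown (-0.33 and -0.78), and SSR4 passed in neither (0.02 and -0.07).

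HSPA5 had 556, 566 and 594 TPM in ARID2 knockdown cells, and 533, 565 and 573 TPM for the libraries labelled Aiolos knockdown, against 896, 943 and 938 TPM in control knockdown cells. Both hairpin groups lay below control knockdown and below the untreated values above (log2 fold change against control knockdown -0.69 ± 0.03 and -0.73 ± 0.03; limma adjusted p = 1.95e-13 and 4.93e-14). PDIA4, a disulfide isomerase of the HSPA5 and HSP90B1 chaperone complex, had 288, 287 and 294 TPM in ARID2 knockdown cells, and 267, 275 and 272 TPM for the libraries labelled Aiolos knockdown, against 649, 688 and 696 TPM in control knockdown cells and 585, 586 and 579 TPM in untreated cells. No hairpin library reached either reference (-1.22 ± 0.03 and -1.31 ± 0.03 against control knockdown; limma adjusted p = 4.97e-18 and 1.03e-18). SDF2L1 had 84.5, 82.8 and 88.5 TPM in ARID2 knockdown cells, and 36.7, 45.4 and 30.9 TPM for the libraries labelled Aiolos knockdown, against 142, 139.8 and 144 TPM in control knockdown cells. It was lower in both hairpin groups and lowest in the second (-0.73 ± 0.10 and -1.90 ± 0.10; limma adjusted p = 2.54e-06 and 1.25e-12). FKBP11, the gene that fell most with the drug, had 50.3, 50.5 and 49.5 TPM in ARID2 knockdown cells, and 28.7, 30.6 and 28.3 TPM for the libraries labelled Aiolos knockdown, against 105, 104 and 113 TPM in control knockdown cells. It was lower in both, and below untreated cells too (-0.78 and -1.54 against untreated; -1.09 ± 0.04 and -1.85 ± 0.04 against control knockdown; limma adjusted p = 5.63e-14 and 1.15e-17). MANF, HSP90B1 and DNAJC3 were lower as well, at -1.06, -0.80 and -0.84 in ARID2 knockdown cells and -1.52, -1.01 and -0.54 in the libraries labelled Aiolos knockdown. Against untreated cells, MANF and HSP90B1 were lower in both groups and DNAJC3 in ARID2 knockdown cells (-0.33), while DNAJC3 did not pass in the libraries labelled Aiolos knockdown (-0.03, 95% confidence interval -0.11 to 0.06).

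For several UPR targets the direction depended on the reference. HERPUD1 had 409, 415 and 430.2 TPM in ARID2 knockdown cells, and 188, 184 and 194 TPM for the libraries labelled Aiolos knockdown, against 496, 512 and 521 TPM in control knockdown cells. It was lower than control knockdown in both (-0.28 ± 0.03 and -1.43 ± 0.03; limma adjusted p = 6.87e-08 and 1.22e-18). Against untreated cells it was 0.79 higher in ARID2 knockdown cells, and in the libraries labelled Aiolos knockdown its fold change was -0.35. DNAJB9 had 168, 169.9 and 181 TPM in ARID2 knockdown cells, and 117, 121 and 133 TPM for the libraries labelled Aiolos knockdown, against 200.1, 206 and 208 TPM in control knockdown cells. Both groups were below control knockdown (-0.24 ± 0.05 and -0.73 ± 0.05; limma adjusted p = 0.000214 and 6.28e-11), and both were above untreated cells (0.61 and 0.13). ERN1 had 105, 101 and 100.1 TPM in ARID2 knockdown cells, and 82.6, 73.2 and 82.3 TPM for the libraries labelled Aiolos knockdown, against 129.8, 136 and 139 TPM in control knockdown cells (-0.40 ± 0.04 and -0.76 ± 0.04; limma adjusted p = 9.79e-08 and 3.86e-12). Against untreated cells it was 0.31 higher in ARID2 knockdown cells, and the libraries labelled Aiolos knockdown did not pass (-0.05). ATF6 had 132, 136 and 141 TPM in ARID2 knockdown cells, and 136, 127 and 145 TPM for the libraries labelled Aiolos knockdown, against 152, 154 and 151 TPM in control knockdown cells. Its fold changes were -0.16 and -0.16 (limma adjusted p = 0.0022 and 0.00134), and it was higher by 0.14 and 0.14 against untreated cells.

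**Figure D4:**
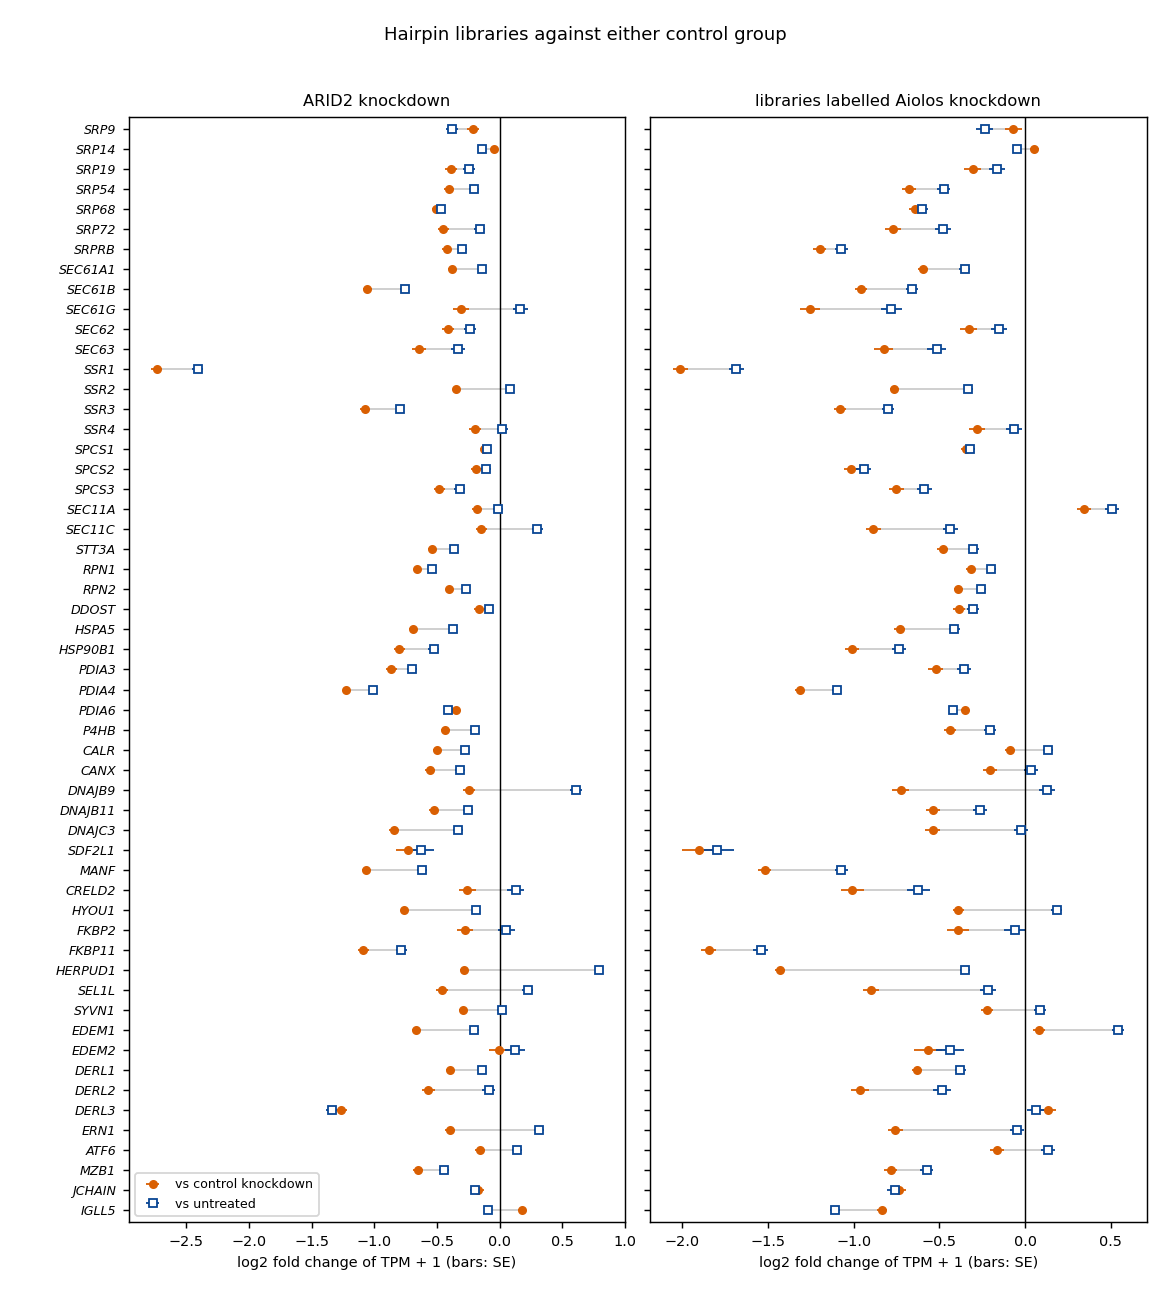
Log2 fold change of each gene in ARID2 knockdown cells and in the libraries labelled Aiolos knockdown against control knockdown cells (orange, filled) and against untreated cells (blue, open squares), with bars for the SE. Most genes lie under 0 with either reference, as SSR1 does at -2.74 and -2.41 in ARID2 knockdown cells, while HERPUD1 there lies at -0.28 and 0.79.

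A few genes separated the hairpin groups. DERL3 had 82.1, 79.8 and 74.5 TPM in ARID2 knockdown cells, and 215, 223 and 190.4 TPM for the libraries labelled Aiolos knockdown, against 189, 183 and 199 TPM in control knockdown cells. It was far below the reference in ARID2 knockdown cells (-1.26 ± 0.05, limma adjusted p = 1.9e-14), while the libraries labelled Aiolos knockdown overlapped it (0.13 ± 0.05, limma adjusted p = 0.0205). With control knockdown kept as the reference, that second call was lost in 7 other settings, with adjusted p between 0.0528 and 0.254. Among them were leaving out either of 2 control or either of 2 hairpin libraries. Against untreated cells, DERL3 did not pass in the libraries labelled Aiolos knockdown (0.06, limma adjusted p = 0.269). DERL3 shares exon bases with SMARCB1 on the other strand. SEC11A had 107, 110.1 and 115 TPM for the libraries labelled Aiolos knockdown and 73.5, 77.04 and 80.04 TPM in ARID2 knockdown cells, against 87.3, 88.7 and 85.4 TPM in control knockdown cells. Its rise in the libraries labelled Aiolos knockdown (0.34 ± 0.04, limma adjusted p = 3.03e-07) had no overlap with the reference, and in ARID2 knockdown cells it was lower (-0.18 ± 0.04). Against untreated cells, SEC11A was 0.51 higher in the libraries labelled Aiolos knockdown and did not pass in ARID2 knockdown cells (-0.01).

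IGLL5 had 36856, 35629 and 34536 TPM in ARID2 knockdown cells, and 17712, 18332 and 16963 TPM for the libraries labelled Aiolos knockdown, against 31003, 31845 and 31736 TPM in control knockdown cells. It was higher in ARID2 knockdown cells without overlap (0.18 ± 0.03, limma adjusted p = 4.17e-05) and lower in the libraries labelled Aiolos knockdown (-0.84 ± 0.03, limma adjusted p = 4.97e-15). Against untreated cells the ARID2 knockdown value turned to -0.10, and quantile normalization, which sets values by rank within a library, gave no rise. JCHAIN had 4910.5, 4930.3 and 5194 TPM in ARID2 knockdown cells, and 3269, 3214 and 3674 TPM for the libraries labelled Aiolos knockdown, against 5768, 5607 and 5538 TPM in control knockdown cells (-0.17 ± 0.04 and -0.74 ± 0.04; limma adjusted p = 0.00227 and 9.9e-12). MZB1 had 836, 851 and 809.8 TPM in ARID2 knockdown cells, and 766, 813 and 705 TPM for the libraries labelled Aiolos knockdown, against 1307, 1269.8 and 1356 TPM in control knockdown cells (-0.65 ± 0.04 and -0.79 ± 0.04; limma adjusted p = 2.32e-11 and 7.78e-13). Both were lower in both hairpin groups without overlap. The summed TPM of the 55 genes was 5.74% of listed TPM in ARID2 knockdown cells and 3.68% in the libraries labelled Aiolos knockdown, against 6.01% in control knockdown cells, and without IGLL5 and JCHAIN 1.50% and 1.48% against 2.16%.

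The regulators differed between the hairpin groups. XBP1 was higher in ARID2 knockdown cells, with 1695 ± 47.8 TPM, and lower in the libraries labelled Aiolos knockdown, with 767 ± 8.08 TPM, against 1280.1 ± 20.97 TPM in control knockdown cells (SD, n = 3 each; 0.40 ± 0.02 and -0.74 ± 0.02; limma adjusted p = 8.9e-12 and 4.71e-16). Both directions held against untreated cells (0.64 and -0.50). ATF4 was lower in both (-1.33 ± 0.03 and -1.22 ± 0.03), and against untreated cells by less (-0.27 and -0.16). DDIT3 was lower than control knockdown in both (-0.37 ± 0.10 and -0.41 ± 0.10) and higher than untreated cells in both (1.00 and 0.96). In the 6 lists outside the 55, 76 of 125 genes were lower and 21 higher in ARID2 knockdown cells, and 83 were lower and 25 higher in the libraries labelled Aiolos knockdown (29.2% and 33.1%, and 30.7% and 37.2%, of all genes). Against untreated cells, 48 were lower and 38 higher in ARID2 knockdown cells, with a median of -0.016, and 68 were lower and 32 higher in the libraries labelled Aiolos knockdown, with a median of -0.14. ER-to-Golgi transport was lower than control knockdown in 25 and 26 of 31 genes (17 and 22 against untreated cells) and N-glycosylation in 15 and 16 of 19 (8 and 14), while translocation genes outside the 55 divided into 6 higher and 5 lower, and 5 higher and 5 lower, of 18.

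Set against each other, 29 of the 55 genes were lower and 13 higher in the libraries labelled Aiolos knockdown than in ARID2 knockdown cells (30.2% and 35.7% of all genes). The largest differences were DERL3 (1.40 ± 0.05, limma adjusted p = 2.88e-15), SDF2L1 (-1.17 ± 0.10), HERPUD1 (-1.14 ± 0.03) and IGLL5 (-1.01 ± 0.03). HSPA5 (-0.04 ± 0.03, 95% confidence interval -0.10 to 0.03) and the disulfide isomerase P4HB (-0.0033 ± 0.03, 95% confidence interval -0.08 to 0.07) did not pass. Of the 9 translocon and TRAP genes, 4 were lower in the libraries labelled Aiolos knockdown, with SEC61G at -0.95 ± 0.06, and 2 were higher, with SSR1 at 0.72 ± 0.04. The SRP receptor subunit SRPRB stood at -0.78 ± 0.04.

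The drug and each hairpin were compared by testing the difference between their fold changes, each against its own reference. The 72 h pomalidomide fold change was above the ARID2 knockdown one in 43 of the 55 genes and below it in 6, where 40.4% of all genes were above and 29.1% below. It was above that of the libraries labelled Aiolos knockdown in 49 and below it in 2, where 35.0% of all genes were above and 28.0% below. The widest gaps to ARID2 knockdown were SSR1 (2.81 ± 0.06), DERL3 (2.31 ± 0.07) and DNAJB9 (1.95 ± 0.07; limma adjusted p = 2.78e-15). To the libraries labelled Aiolos knockdown they were HERPUD1 (2.86 ± 0.04), DNAJB9 (2.43 ± 0.07) and CRELD2 (2.18 ± 0.09; limma adjusted p = 7.38e-14). The genes whose drug fold change lay below that of ARID2 knockdown included IGLL5 (-0.81 ± 0.04), SEC11C (-0.46 ± 0.06), JCHAIN (-0.44 ± 0.06), SEL1L (-0.42 ± 0.07) and FKBP11 (-0.33 ± 0.06). For SEL1L the drug and the libraries labelled Aiolos knockdown were not shown to differ (0.02 ± 0.07, 95% confidence interval -0.12 to 0.16), and neither were they for ATF6 (0.04 ± 0.06, 95% confidence interval -0.08 to 0.16). Since control knockdown cells stood above untreated cells in most of these genes, the choice of reference enters these gaps.

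Other properties of the libraries moved with the groups. Mitochondrial mRNA made up 15.5% of listed TPM in untreated cells, 17.0%, 16.7% and 13.7% at 24, 48 and 72 h, and 18.5% in ARID2 knockdown cells and 15.7% in the libraries labelled Aiolos knockdown, against 17.2% in control knockdown cells. The 11 plasma cell markers summed to 11191 TPM in untreated cells and 8700, 8963 and 9228 TPM at 24, 48 and 72 h, with 7 of 11 lower and 2 higher at 24 h and 6 lower and 3 higher at 72 h. They summed to 10647 TPM in ARID2 knockdown cells and 7005 TPM for the libraries labelled Aiolos knockdown, against 11880 TPM in control knockdown cells, and 2 of the 11 are MZB1 and JCHAIN. Of the 11, 5 were lower and 5 higher in ARID2 knockdown cells. In the libraries labelled Aiolos knockdown 8 were lower and 2 higher. IRF4, one of the 11, had 147, 199.8 and 229 TPM at 24, 48 and 72 h. It had 453 TPM in ARID2 knockdown cells and 137 TPM for the libraries labelled Aiolos knockdown, against 631 TPM in control knockdown cells. The 8 mature B-cell markers summed to 121 TPM in untreated cells and 75.9, 103 and 111 TPM at 24, 48 and 72 h. They summed to 97.7 and 154 TPM in the same hairpin groups, against 127 TPM in control knockdown cells, with CR2 at 50.9 and 91.9 TPM against 52.9 TPM. The part of these shifts in the results was not tested.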

How the data were processed

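The deposited table gives TPM per gene for 21 libraries, computed by the authors, with the genome build hg38 per the submitters' processing notes. The sources used here name neither the aligner nor the quantifying tool. A TruSeq v2 kit, which does not mark strand, made the libraries, per the labels' protocols. TPM express shares of a library, so a change in a few abundant transcripts moves all others, and depth is unknown.

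Values were taken as log2(TPM + 1) for the 12559 of 17691 genes that reached 1 TPM in 3 or more libraries and fitted in limma 3.58.1 (R 4.3.3) with 7 group means over all 21 libraries and a variance trend (14 residual and 5.28 prior degrees of freedom). Tests were two-sided, adjusted by Benjamini-Hochberg within each of 11 contrasts over all genes tested, and checked on simulated data. The contrasts of both hairpin groups against untreated cells were added to these after the data were seen. They were fitted and adjusted in the same way. Differences between drug and hairpin effects were contrasts of that fit. Counts of genes are descriptions beside the share of all genes called.

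All 55 genes could be named. Values in every library were given for the 3 largest rises and falls per drug time and hairpin group among genes passing the test with non-overlapping groups and at least 5 TPM, and always for HSPA5, HERPUD1, DNAJB9, ERN1, ATF6, MZB1, JCHAIN and IGLL5. Outside the 55, the 2 genes per list and direction with the smallest p at 72 h were eligible, besides XBP1, ATF4 and DDIT3. The genes, lists and rules were chosen with earlier results of these data known. All 55 matched a single GENCODE gene, 28 share exon bases with a gene on the other strand and 10 with one on the same strand. Promoter windows came from RefSeq, GRCh38.p14, and were searched whole. Only the printed sequences were cut before the RefSeq and the GENCODE start. Alternatives were pseudocounts of 0.1 and 5, no filter or 5 TPM, median-of-ratios and quantile scaling, rescaling without mitochondrial and immunoglobulin genes, fits of the compared groups only or without a trend, the replicate number as a block, each library left out, and untreated cells as the reference of the hairpins.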

Additional observations from a re-analysis of the deposited data

Results flagged for a closer look

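Several genes passed the test in opposite directions in a pair of groups, and the difference between the groups, tested by limma in the same fit, passed as well. SRP68, of the signal recognition particle, was 0.11 ± 0.03 at 24 h and -0.08 ± 0.03 at 48 h of pomalidomide against untreated cells, a difference of -0.19 ± 0.03 (adjusted p = 8.82e-05), and returned to 0.10 ± 0.03 at 72 h, a difference from 48 h of 0.18 ± 0.03 (adjusted p = 0.0002). SRP72 differed by 0.25 ± 0.04 between 72 and 48 h (adjusted p = 0.00013) and MANF by 0.48 ± 0.04 (adjusted p = 5.13e-09). Between 48 and 24 h, the difference was -0.21 ± 0.04 for SEC61B (adjusted p = 4.64e-05), -0.18 ± 0.02 for PDIA6 (adjusted p = 1.32e-06) and 0.21 ± 0.03 for DERL1 (adjusted p = 8.65e-06). The separate fold changes of these genes were under 0.3 in size, and for SRP68, SRP72 and DERL1 at 72 h and SEC61B and PDIA6 at 48 h their direction turned with the scaling.

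Between the libraries labelled Aiolos knockdown and ARID2 knockdown cells, which share a reference, the difference was 1.40 ± 0.05 for DERL3, 0.52 ± 0.04 for SEC11A and -1.01 ± 0.03 for IGLL5 (limma adjusted p = 2.88e-15, 7.3e-10 and 3.3e-16). The libraries of these groups did not overlap for any of the 3 genes. The opposite directions of DERL3 rest on its overlapping rise in the libraries labelled Aiolos knockdown.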

How the results depend on the processing

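Of 10450 gene results under the alternatives, 10063 kept their side of the threshold, 240 lost and 110 gained a call. Another 37 changed direction with a call in the main fit or the alternative. Changes of direction without a call in either were counted among the 10063. At 24 h, quantile normalization gave a median of the 55 genes of 0.17 and MZB1 0.13. At 48 h it gave 15 genes lower, a median of 0.12, SEC61B 0.074, SSR3 0.17, STT3A 0.097 and PDIA6 0.052, and median-of-ratios scaling a median of -0.036 and CALR -0.0018. At 72 h, median-of-ratios scaling gave a median of 0.012, SRP68 -0.062, SRP72 -0.049, RPN2 -0.10, DNAJB11 -0.12 and DERL1 -0.0034. Between 48 and 24 h, quantile normalization gave 15 lower and RPN1 0.023. Between 72 and 48 h, median-of-ratios scaling gave 2524 of all genes higher, 12 of the 55 lower, a median of 0.062 and STT3A -0.076. Quantile normalization gave 19 higher, 10 lower, a median of 0.058, SRP54 -0.094 and STT3A -0.084, and rescaling without mitochondrial and immunoglobulin genes 9 lower and a median of 0.078. Without 1 library the lower count there ranged between 2 and 3.

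In ARID2 knockdown cells, quantile normalization left 0 genes higher (1 at an unadjusted p under 0.05 in limma) and a median of -0.36. Against untreated cells, 8 were higher with a median of -0.20, and 13 genes changed direction: SEC61G 0.17, SSR2 0.085, SSR4 0.022, SEC11C 0.30, DNAJB9 0.61, CRELD2 0.13, FKBP2 0.054, HERPUD1 0.79, SEL1L 0.22, SYVN1 0.016, ERN1 0.31, ATF6 0.14 and IGLL5 -0.095. In the libraries labelled Aiolos knockdown, median-of-ratios scaling, rescaling and a fit of the compared groups each left 1 gene higher, and leaving out 1 library 1 to 3. Against untreated cells 7 were higher with a median of -0.35, and CALR 0.13, CANX 0.034, DNAJB9 0.13, HYOU1 0.18, SYVN1 0.084 and ATF6 0.14 changed direction. Between the hairpin groups, SRP14 was -0.0079 and RPN2 -0.074 with quantile normalization, and rescaling gave RPN2 -0.069 and a median of -0.21. For control knockdown against untreated cells, quantile normalization gave 2 lower. The median difference between drug and ARID2 knockdown was 0.48 with median-of-ratios scaling and 0.53 with rescaling, and that between drug and the libraries labelled Aiolos knockdown 0.64 with median-of-ratios scaling. Beyond construction, the cause of these shifts was not tested.

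Same-numbered libraries did not deviate together (r between -0.12 and 0.08), so no pairing by number was seen. A weak shared effect of culture or day could be missed by these correlations. With the replicate number as a block, the counts of the 55 genes moved by at most 1, to 14 lower at 24 h, 22 lower at 48 h and 3 lower between 72 and 48 h. Depth is unknown, and 3 libraries per group limit the precision.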

Other observations

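Within the TRAP complex, SSR1 fell to 15.2 ± 0.251 TPM in ARID2 knockdown cells, against 107 ± 2.102 TPM in control knockdown cells (SD, n = 3 each), while SSR4 had 126 ± 3.01 TPM there, against 144 ± 2.66 TPM. Within signal peptidase, the catalytic subunits went opposite ways in the libraries labelled Aiolos knockdown: SEC11A had 111 ± 3.77 TPM and SEC11C 265 ± 6.46 TPM, against 87.1 ± 1.65 and 490.3 ± 7.94 TPM in control knockdown cells. Within the SYVN1 ligase complex, SEL1L had 114 ± 0.151 TPM and HERPUD1 649.9 ± 14.8 TPM after 72 h of pomalidomide, against 211 ± 4.64 and 241 ± 2.52 TPM in untreated cells.

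The genes with an ERSE match did not share a direction at 72 h of pomalidomide. HSPA5, CRELD2, CALR and CANX were higher (log2 fold change 0.89, 1.17, 0.39 and 0.18), and HSP90B1 and PDIA6 were lower (-0.31 and -0.12). The value of CANX was close to the median of all genes (0.15). Of the genes with an ERSE-II match, HERPUD1 and HYOU1 were higher (1.43 and 0.76) and SDF2L1 did not pass (0.19 ± 0.10). In ARID2 knockdown cells and in the libraries labelled Aiolos knockdown, all of these genes were lower than in control knockdown cells. So were 52 and 50 of the 55 genes, so this does not set the genes with a match apart. Against untreated cells, HERPUD1 was higher in ARID2 knockdown cells (0.79) and CRELD2 did not pass (0.13). In the libraries labelled Aiolos knockdown, CALR and HYOU1 were then higher (0.13 and 0.18) and CANX did not pass (0.03). The remaining genes with an ERSE or ERSE-II match were lower in each group.

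Against untreated cells, which all of these comparisons share, FKBP11 had log2 fold changes of -1.23, -1.72 and -1.41 at 24, 48 and 72 h of pomalidomide, -0.78 in ARID2 knockdown cells and -1.54 in the libraries labelled Aiolos knockdown. FKBP11 shares exon bases with AC073610.2 on the same strand and with CCDC65 on the other strand.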
